A study of Mus musculus with 6 samples.

Results

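The kinesin motor family was examined in tumor endothelial cell (TEC) fractions with and without Notch activation. Members were the RefSeq gene rows named Kif with a number and at most 1 letter from a to c, plus Kifc1, Kifc2 and Kifc3, which gave 40 of 23473 RefSeq rows. A mean of at least 1 RPKM (reads per kilobase of gene model, scaled to the mapped reads of the library) over all 6 libraries was required for a test, and 27 of the 40 passed, of 12320 rows in all. Names chose the family, while the measured mean chose which members were tested. Just inside that limit stood Kif7 at a mean of 1.06 RPKM and Kif18a at 1.23 RPKM, and the highest mean outside it was 0.629 RPKM, that of Kif5c. Kif7 and Kif14 passed through the Ctrl libraries, since their NICeCA means were 0.603 and 0.863 RPKM.

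Notch was activated in the endothelium of mice bearing subcutaneous Lewis lung carcinoma (LLC) tumors, to ask how gene expression of the TECs differed from that of control mice. Both groups were male C57BL/6 mice labelled as 8 weeks old, with 3 libraries a group from separate mice. The methods speak of pairs of NICeCA and control mice, without saying which libraries were paired. Ctrl mice were labelled wild type, and NICeCA mice carried Cdh5-CreERT2 together with a Rosa26 allele in which a floxed stop precedes the intracellular domain (ICD) of Notch1. The Cdh5 promoter drives the tamoxifen-dependent Cre, so the model rests on recombination in Cdh5-expressing cells, and tamoxifen was injected before the tumor cells were. No source used here says whether these wild-type controls received tamoxifen. TECs were pulled from digested tumors with CD31-coated magnetic beads, total RNA was depleted of ribosomal RNA and sequenced. The labels say that tumors were collected on different days, while the methods give a single day.

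Kinesins are motor proteins that turn ATP hydrolysis into movement along microtubules or into the shortening of microtubule ends. Mitotic kinesins build the spindle, move and align chromosomes and complete cytokinesis, and their transcripts are made mainly by dividing cells, many of them under the cell cycle genes homology region, a promoter element read by the DREAM and MuvB complexes. Transport kinesins carry mitochondria, lysosomes, vesicles, adhesion molecules and ciliary cargo, usually through light chains or adaptor proteins, and are used by dividing and resting cells alike. By known role, 12 members were placed among mitotic kinesins, 17 among transport kinesins and 11 among others, such as ciliary regulators and the depolymerases Kif2a and Kif2b, which also act at the spindle.

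Libraries held 39000759 to 39823498 reads over all rows in Ctrl and 35303191 to 37239310 in NICeCA, and 84 to 6855 reads lay behind each value of a tested kinesin. The endothelial markers, 10 of 10 detected in every library, summed to between 188 and 491 RPKM in Ctrl and between 428 and 558 RPKM in NICeCA. All 10 were higher in NICeCA by log2 fold change, with a median of 0.71, whereas 55.3% of all tested rows were lower. Groups overlapped for 8 of these 10. Macrophage markers (8 genes) summed to between 2612 and 3762 RPKM in Ctrl and between 1689 and 3541 RPKM in NICeCA, so macrophage transcripts were plentiful in both groups. Most of this sum came from C1qa, C1qb and C1qc, and the 8 genes differed in direction, 5 lower in NICeCA and 3 higher. Among the higher ones, Fcgr1 had means of 29.6 and 86.2 RPKM and Cd68 of 143 and 242 RPKM in Ctrl and NICeCA. Neutrophil markers (8 genes) summed to between 145 and 301 RPKM in Ctrl and between 648 and 1720 RPKM in NICeCA, without overlap. Fibroblast markers (6 genes) summed to between 320 and 557 RPKM in Ctrl and between 153 and 310 RPKM in NICeCA. Most of this sum came from Col3a1, with means of 341 and 160 RPKM. Of the 6 genes, 4 were lower in NICeCA and 2, Col1a1 and Col1a2, were higher. Pericyte and smooth muscle markers (6 genes) summed to between 24.8 and 40.3 RPKM in Ctrl and between 50.3 and 96.3 RPKM in NICeCA. Most of this sum came from Rgs5, with means of 14.1 and 36.4 RPKM, and Acta2, with means of 7.87 and 20.1 RPKM. The pericyte genes Pdgfrb, at 5.08 and 5.17 RPKM, and Cspg4, at 0.738 and 0.836 RPKM, overlapped between groups. Sums were 22.3 to 38.3 RPKM against 19.5 to 31.7 RPKM for 5 T cell markers, and 6.71 to 12.3 RPKM against 6.13 to 8.57 RPKM for 5 epithelial markers, 1 of which was at 0 in some library. In such bulk fractions, fewer cells of a type and less RNA per cell cannot be told apart.

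Promoter sequences are shown first because they part the mitotic kinesins from the transport kinesins by a feature that the expression values did not define. RefSeq promoter windows (GRCm38.p6, 250 bases before to 50 after the annotated start) were matched by symbol for 32 of the 40 genes, and 4 of these had 2 windows. The stretches printed here run from 100 bases before the start to 30 bases after it, in capitals where they hold TTTGAA or its variant TTCGAA (the core of the cell cycle genes homology region), or CCAAT (the box bound by NF-Y). Either orientation counts, so TTTGAA can read as TTCAAA and CCAAT can read as ATTGG. The 4 mitotic kinesins whose NICeCA libraries all lay below all Ctrl libraries come first.
Kifc1, chr17:33890604-33890733, minus strand: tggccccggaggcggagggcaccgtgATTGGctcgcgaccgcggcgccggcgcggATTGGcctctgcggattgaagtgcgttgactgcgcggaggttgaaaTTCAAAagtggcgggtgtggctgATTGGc
Kif22, chr7:127042391-127042520, minus strand: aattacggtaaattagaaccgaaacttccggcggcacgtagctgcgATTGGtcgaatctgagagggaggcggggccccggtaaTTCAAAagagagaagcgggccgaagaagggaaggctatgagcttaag
Kif20b, chr19:34922258-34922387, plus strand: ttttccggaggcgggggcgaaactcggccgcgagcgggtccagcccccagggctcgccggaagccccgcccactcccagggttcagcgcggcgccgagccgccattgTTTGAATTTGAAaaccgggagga
Kif11, chr19:37376282-37376411, plus strand: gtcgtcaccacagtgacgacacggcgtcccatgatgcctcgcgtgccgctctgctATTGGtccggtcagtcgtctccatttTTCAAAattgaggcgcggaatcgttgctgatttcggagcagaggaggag
Then come 3 other mitotic kinesins, with the core close to the start.
Kif15, chr9:122950981-122951110, plus strand: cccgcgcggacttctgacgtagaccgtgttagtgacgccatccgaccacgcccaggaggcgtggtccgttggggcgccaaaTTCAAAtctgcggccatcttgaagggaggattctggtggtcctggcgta
Kif23, chr9:61946770-61946899, minus strand: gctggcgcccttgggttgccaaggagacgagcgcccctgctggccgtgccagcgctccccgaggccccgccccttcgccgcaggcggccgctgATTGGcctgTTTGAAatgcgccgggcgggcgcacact
Kif18b, chr11:102925095-102925224, minus strand: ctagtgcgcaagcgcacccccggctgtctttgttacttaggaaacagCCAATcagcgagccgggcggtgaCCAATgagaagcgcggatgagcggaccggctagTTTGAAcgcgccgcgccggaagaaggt
Kif24, from outside the mitotic class, is shown for its TTCGAA form, and Kif18a and Kif3c because neither holds a capital in this stretch.
Kif24, chr4:41464819-41464948, minus strand: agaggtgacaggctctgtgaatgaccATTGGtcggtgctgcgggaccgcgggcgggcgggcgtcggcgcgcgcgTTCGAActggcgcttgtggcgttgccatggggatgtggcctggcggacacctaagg
Kif18a, chr2:109280638-109280767, plus strand: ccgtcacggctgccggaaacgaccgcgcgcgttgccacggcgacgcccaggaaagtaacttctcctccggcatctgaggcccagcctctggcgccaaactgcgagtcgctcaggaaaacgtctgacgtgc
Kif3c, chr12:3365032-3365161, plus strand: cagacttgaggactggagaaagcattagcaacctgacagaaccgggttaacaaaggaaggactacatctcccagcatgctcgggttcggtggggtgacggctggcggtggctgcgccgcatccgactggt

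Over the whole 300-base windows, TTTGAA was found on either strand in 10 of 11 mitotic kinesin genes with a window, Kif18a being the exception. It was found in 1 of 11 transport kinesin genes (Kif1a) and in 2 of 10 other kinesin genes, against 17.9% of all 32851 windows in the table. Within 50 bases of the start it stood in 8 of 11 mitotic and 1 of 11 transport kinesin genes, against 4.94% of all windows. TTCGAA was held by Kif24 alone among the 32 genes, against 1.56% of all windows. CCAAT lay in 7 of 11 mitotic, 3 of 11 transport and 5 of 10 other kinesin genes, against 37.4% of all windows. CACGTG, the E-box bound by MYC with MAX among other factors, lay in none of the 11 mitotic kinesin genes and in 1 transport kinesin gene (Kif1a), against 7.15% of all windows. Kinesin counts are of genes with a match in any of their windows, while the shares over the table are per window. Genes with 2 windows could thus match more easily. A match describes these letters only, and 8 genes without a window (Kif5a, Kif5b, Kif13b, Kif19a, Kif20a, Kif21b, Kifc2 and Kifc3) were not searched.

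**Figure D1:**
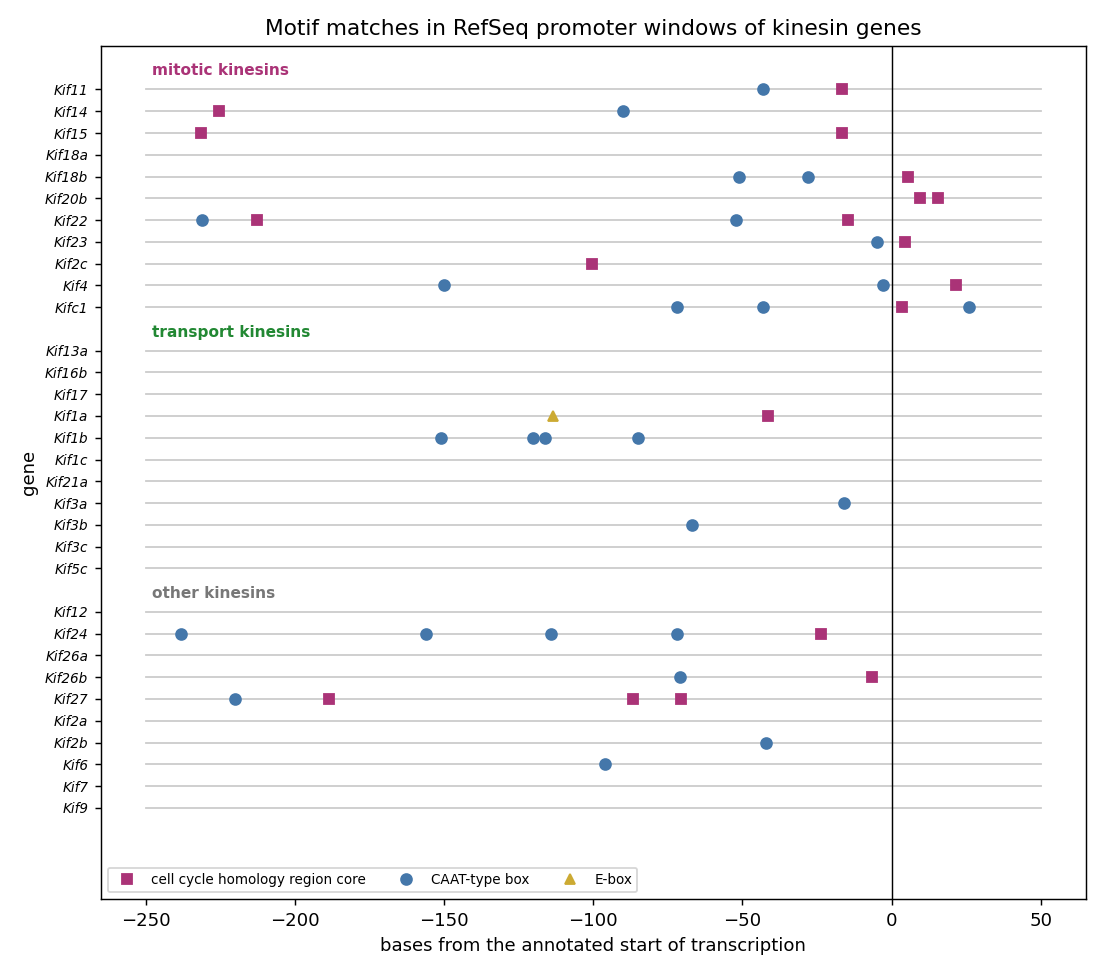
Motif matches by distance in bases from the annotated start of transcription (x axis) for the 32 kinesin genes with a RefSeq promoter window (rows, grouped by class). Squares mark TTTGAA or TTCGAA, circles CCAAT and the triangle CACGTG, on either strand, and matches from both windows are overlaid for the 4 genes with 2 windows. Squares gather around the start in mitotic kinesins, in 8 of 11, and are rare in transport kinesins.

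Across the family, the log2 fold change of NICeCA against Ctrl, fitted with limma on log2(RPKM + 1), lay below 0 for 23 of 27 tested kinesins, against 55.3% of all tested rows (for 21 by TMM scaling or limma-voom, 20 by quantile normalization and 18 with a trend on row length removed). Rows of the lengths that kinesins have lay below 0 more often than the 55.3% of all rows, as given with row length at the end. Differences on this scale understate those of low genes. With p-values adjusted by the Benjamini-Hochberg method over all 12320 rows and a threshold of 0.05, limma called 1 kinesin lower, the transport motor Kif13b, against a background of 7.68% of all rows called lower. None was called higher, against 5.88%, also none at an unadjusted p under 0.05 (14.4% of all rows) and none by limma-voom on recovered reads. At an unadjusted p under 0.05, 14 of the 27 were lower, against 21.1% of all rows, and at an adjusted p under 0.1 10 were lower, against 16.2%. All 3 NICeCA libraries lay below all 3 Ctrl libraries for 11 of 27, against 24.4% of all rows, and above them for none, against 16.5%. Kif7 and Kif14, which passed the limit through the Ctrl libraries, are among the 23 below 0. Kif7 is also among the 14, the 10 and the 11, so these counts lean towards lower. The call of Kif13b held in 2 of 16 settings, and its limits are given with its values.

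**Figure D2:**
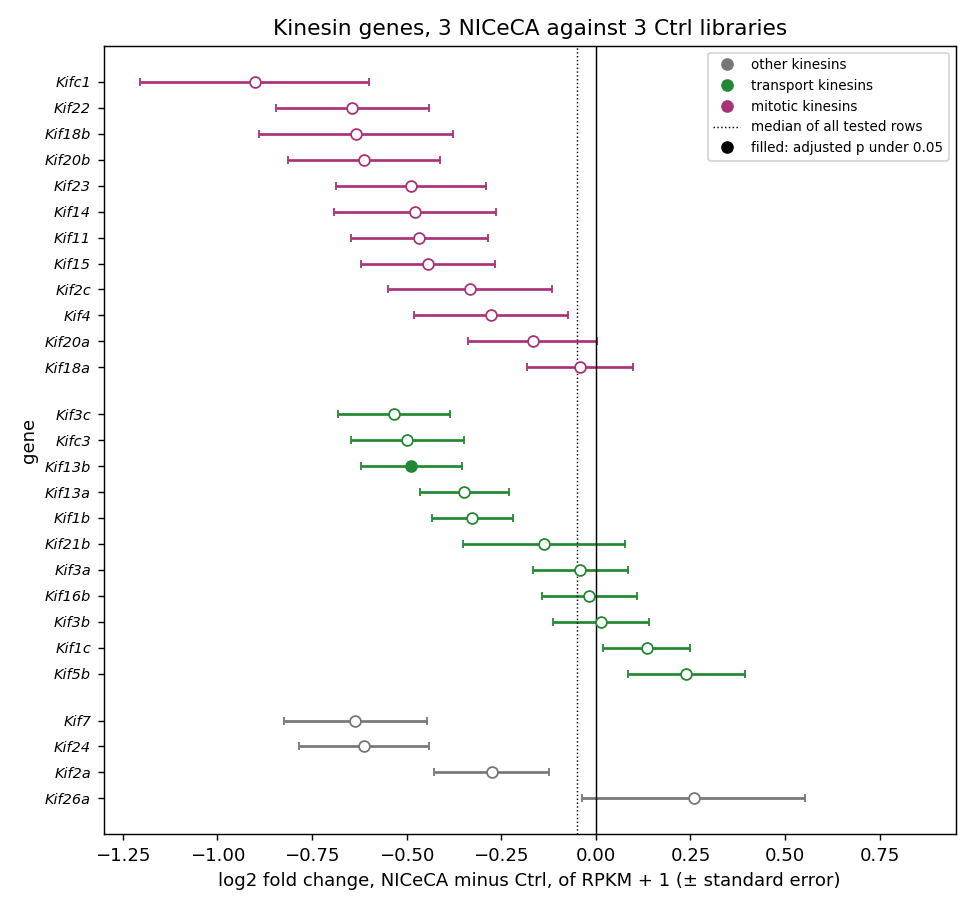
Log2 fold change of RPKM + 1, NICeCA minus Ctrl, with its standard error (x axis), for the 27 tested kinesins (rows, by class), from limma on 3 against 3 libraries. The filled point is Kif13b, the 1 kinesin with an adjusted p under 0.05, and the dotted line is the median of all tested rows, -0.05. All 12 mitotic kinesins lie below 0 (11 by quantile normalization), from -0.90 to -0.04.

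Mitotic kinesins were all expressed above the limit (Kif14 through its Ctrl values), with means from 1.23 RPKM (Kif18a) to 9.17 RPKM (Kifc1). Their fitted log2 fold changes were below 0 in 12 of 12 (11 of 12 by quantile normalization or with the length trend removed), against 55.3% of all tested rows. The median was -0.47 against -0.05 over all tested rows. None of the 12 was called at an adjusted p under 0.05 by limma, nor by limma-voom, and 7 were lower at an unadjusted p under 0.05 (21.1% of all rows). Groups did not overlap for 4 of the 12, Kifc1, Kif22, Kif20b and Kif11, against 24.4% of all rows.

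Among motors that shape the spindle, Kifc1 (chr17:33875666-33890633, minus strand), a minus-end-directed motor that focuses spindle poles and clusters extra centrosomes, measured 9.47, 19.5 and 8.41 RPKM in Ctrl replicates 1 to 3 and 4.77, 5.06 and 7.85 RPKM in NICeCA. All NICeCA libraries were below all Ctrl libraries, although the highest NICeCA value came close to the lowest Ctrl value. The means were 12.4 ± 6.09 and 5.89 ± 1.70 RPKM (SD, n = 3 each), and the log2 fold change was -0.90 with a standard error of 0.30 and an adjusted p of 0.0793 (limma), which was not a call. Kifc5b, a near copy of Kifc1 on the same chromosome that could share its reads, measured 4.31, 7.24 and 2.59 RPKM in Ctrl and 1.52, 1.35 and 3.13 RPKM in NICeCA, with overlap. Its log2 fold change was -0.89 (adjusted p = 0.0970, limma), so how the reads were split between the 2 genes bears on Kifc1.

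Kif11 (chr19:37376403-37421859, plus strand), the plus-end-directed motor that slides spindle poles apart, measured 6.40, 10.3 and 7.21 RPKM in Ctrl and 5.41, 4.64 and 6.22 RPKM in NICeCA. The groups did not overlap, with a gap of less than the spread within either. The fitted log2 fold change was -0.47 ± 0.18 (SE) with an adjusted p of 0.113 (limma). Kif15, which can stand in for Kif11 in holding the spindle open, measured 2.30, 3.65 and 2.87 RPKM in Ctrl and 1.57, 1.71 and 2.41 RPKM in NICeCA, where the highest NICeCA value passed the lowest Ctrl value. Its log2 fold change was -0.44 ± 0.18 (SE), with an adjusted p of 0.119 (limma).

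Of the motors that shorten microtubule ends, Kif2c, which corrects faulty attachments at centromeres, measured 3.74, 6.96 and 4.24 RPKM in Ctrl and 3.80, 2.87 and 4.32 RPKM in NICeCA. Kif18a, which damps chromosome movements at the spindle equator, measured 1.09, 1.29 and 1.42 RPKM in Ctrl and 1.03, 1.295 and 1.27 RPKM in NICeCA. Kif18b, which acts on astral microtubules, measured 2.86, 5.23 and 2.47 RPKM in Ctrl and 1.73, 1.27 and 2.60 RPKM in NICeCA. Groups overlapped for each of the 3 genes. The log2 fold changes were -0.33 ± 0.22 (SE) for Kif2c, -0.04 ± 0.14 for Kif18a and -0.63 ± 0.26 for Kif18b, with adjusted p of 0.301, 0.848 and 0.122 (limma). The interval for Kif18a, from -0.37 to 0.28 (95%), held differences of either sign.

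Of the motors on chromosome arms, Kif22 (chr7:127027731-127042420, minus strand), which pushes arms away from the poles, measured 6.84, 11.2 and 7.19 RPKM in Ctrl and 5.43, 3.90 and 5.53 RPKM in NICeCA. The groups were apart, with means of 8.42 ± 2.44 and 4.95 ± 0.915 RPKM (SD, n = 3 each). The log2 fold change of Kif22 was -0.64 ± 0.20 (SE) with an adjusted p of 0.0677 (limma). Kif4, which helps compact chromosomes and later organises the spindle midzone, measured 2.85, 4.89 and 3.36 RPKM in Ctrl and 2.66, 2.23 and 3.70 RPKM in NICeCA, with overlap. That of Kif4 was -0.28 ± 0.20 (SE), with an adjusted p of 0.357 (limma).

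The cytokinesis motors follow. Kif20b (chr19:34922358-34975731, plus strand), needed for the completion of abscission, measured 3.14, 5.01 and 2.82 RPKM in Ctrl and 1.57, 2.06 and 2.38 RPKM in NICeCA, without overlap, and had a log2 fold change of -0.61 ± 0.20 (SE) with an adjusted p of 0.0743 (limma). Kif23, the motor of the centralspindlin complex, measured 3.97, 7.05 and 4.83 RPKM in Ctrl and 3.30, 2.85 and 4.12 RPKM in NICeCA. Kif14, which recruits citron kinase to the midbody, measured 1.00, 2.45 and 1.497 RPKM in Ctrl and 0.734, 0.756 and 1.10 RPKM in NICeCA. Both had 1 NICeCA library above the lowest Ctrl library, with log2 fold changes of -0.49 ± 0.20 and -0.48 ± 0.22 (SE) and adjusted p of 0.124 and 0.153 (limma). Kif20a, which carries the chromosomal passenger complex to the midzone, measured 5.45, 8.28 and 7.45 RPKM in Ctrl and 6.29, 5.15 and 6.97 RPKM in NICeCA, and had a log2 fold change of -0.17 ± 0.17 (SE) with an adjusted p of 0.511 (limma). Its row shares 1595 bases with Cdc23 on the other strand, at a mean of 7.73 RPKM, so the values of Kif20a could hold reads of that gene.

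A single library stood out in this class. Ctrl replicate 2 was the highest of all 6 libraries for 11 of the 12 mitotic kinesins, the exception being Kif18a, against 3931 of all 12320 rows. NICeCA replicate 3 was the highest of its group for 11 of the 12, against 5114 of all rows. The sum over the class was 49.1, 85.8 and 53.8 RPKM in Ctrl and 38.3, 33.8 and 48.5 RPKM in NICeCA. Ctrl replicate 2 also held the lowest endothelial marker sum (188 RPKM) and the highest fibroblast marker sum (557 RPKM), and the part of these in the mitotic values was not tested. Without that library the median log2 fold change of the 12 was -0.29, with 12 of 12 still below 0 and none called.

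Transcript levels of proliferation markers can be set beside these values. Of 8 proliferation markers, 7 had a log2 fold change below 0 and 1 above, against 55.3% of all tested rows below 0. Ctrl replicate 2 was the highest of all libraries for 7, against 3931 of all 12320 rows. Limma called 1 of the 8 lower, against 7.68% of all rows, and none higher, against 5.88%. By limma-voom 1 was called lower and 1 higher, against 794 and 960 of all 12320 rows. Mki67, the 1 marker called by limma, fell in NICeCA from 27.9 ± 7.81 to 14.3 ± 3.35 RPKM (SD, n = 3 each), with a log2 fold change of -0.90 and an adjusted p of 0.0409 (limma). Pcna, the sliding clamp of DNA replication, stood on the other side, at 84.6 ± 3.16 and 116 ± 11.6 RPKM (SD, n = 3 each) with every NICeCA library above every Ctrl library, a log2 fold change of 0.45 and an adjusted p of 0.0523 (limma). Mki67 has the longest row of the 8, at 10075 bases, and Pcna the shortest, at 1260 bases, and the part of row length was not tested. The mitotic regulators Cdk1 and Ccnb1 had log2 fold changes of -0.08 and -0.11, with overlap. The mean log2(RPKM + 1) of the 8 markers overlapped between groups, at 4.01, 4.61 and 4.34 in Ctrl and 4.09, 3.91 and 4.25 in NICeCA. The mean log2(RPKM + 1) of the 12 mitotic kinesins also overlapped, by a narrow margin, at 2.185, 2.81 and 2.31 in Ctrl and 1.92, 1.82 and 2.193 in NICeCA.

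**Figure D3:**
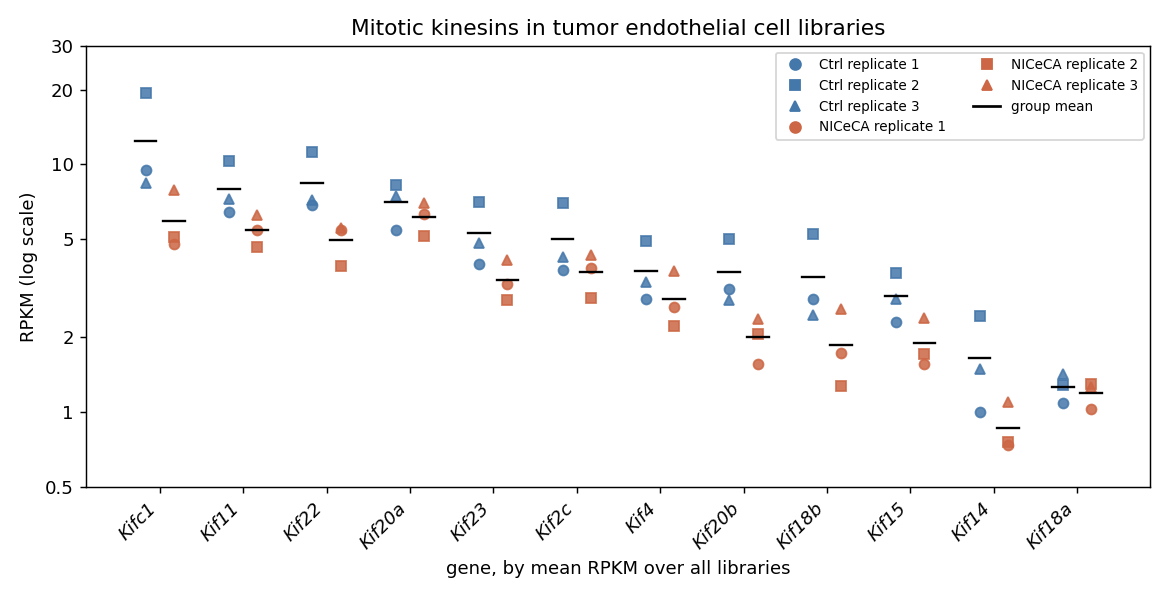
RPKM of each of the 12 mitotic kinesins (x axis, genes; y axis, RPKM on a log scale, with points for single libraries and lines for group means) in 3 Ctrl and 3 NICeCA libraries. Kifc1 spans 4.77 to 19.5 RPKM and holds the widest range in RPKM, while Kif18a stays between 1.03 and 1.42 RPKM with the groups mixed.

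Genes of proteins that work with mitotic kinesins had values on the same side but made no call. Of 18 listed partners, 18 were tested and 18 had a log2 fold change below 0 (55.3% of all rows), with a median of -0.44. None was called by limma or limma-voom, 7 were lower at an unadjusted p under 0.05 (21.1% of all rows), and in 5 all NICeCA libraries lay below all Ctrl libraries (24.4% of all rows). Ctrl replicate 2 was the highest of all 6 libraries for 18 of the 18 (3931 of all 12320 rows), as it was for most mitotic kinesins. Cenpe, itself a kinesin that carries chromosomes to the spindle equator though its symbol lies outside the family rule, measured 4.598, 7.72 and 4.25 RPKM in Ctrl and 1.97, 2.33 and 3.72 RPKM in NICeCA, with a log2 fold change of -0.82 and an adjusted p of 0.0586 (limma). Racgap1, the partner of Kif23 in centralspindlin, stood at 14.6 ± 3.16 and 10.4 ± 1.60 RPKM (SD, n = 3 each), with a log2 fold change of -0.45 and an adjusted p of 0.116 (limma). Prc1, the bundler of midzone microtubules that binds Kif4, stood at 10.3 ± 1.95 and 7.22 ± 2.12 RPKM (SD, n = 3 each), with a log2 fold change of -0.47 and an adjusted p of 0.148 (limma).

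Transport kinesins included the most abundant members, and 11 of 17 were tested. Their log2 fold changes were below 0 in 8 (55.3% of all rows) and above 0 in 3, with a median of -0.14, and ranged from -0.53 to 0.24. That median was -0.024 by quantile normalization and turned to 0.156 with the trend on row length removed. Kif13b was called lower and none was called higher, while 5 had an unadjusted p under 0.05, all lower (21.1% of all rows). Groups did not overlap for Kif3c, Kifc3, Kif13b, Kif13a and Kif1b, 5 of the 11, against 24.4% of all rows. By library, the mean log2(RPKM + 1) of the class was 3.27, 3.21 and 3.25 in Ctrl and 3.11, 3.02 and 3.06 in NICeCA, without overlap, whereas the summed RPKM overlapped, at 115, 107 and 115 in Ctrl and 109, 106 and 105 in NICeCA.

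Kif13b (chr14:64652531-64806296, plus strand), which moves vesicles along microtubules and binds the scaffold Dlg1, measured 11.5, 9.18 and 9.45 RPKM in Ctrl and 7.68, 6.73 and 6.18 RPKM in NICeCA. Every NICeCA library was below every Ctrl library, and Ctrl replicate 1 was the highest. Its level fell by 31.6% from a mean of 10.0 ± 1.25 to 6.86 ± 0.756 RPKM (SD, n = 3 each), with a log2 fold change of -0.49 ± 0.13 (SE, 95% interval -0.80 to -0.18) and an adjusted p of 0.0497 (limma). Over the settings tried, its log2 fold change ranged from -0.56 to -0.29 and its adjusted p from 0.0472 to 0.205, so the call stood at the threshold. It was lost without any 1 of the 6 libraries, by TMM scaling (-0.43, adjusted p = 0.0809), by quantile normalization (-0.41, adjusted p = 0.112), with the trend on length removed (-0.29, adjusted p = 0.205) and by limma-voom on recovered reads (-0.48, adjusted p = 0.0750).

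The Kif1 and Kif13 motors, which haul vesicles and organelles, included the second most abundant kinesin. Kif1c, a long-range carrier of integrin-containing vesicles, measured 24.9, 23.5 and 22.1 RPKM in Ctrl and 27.2, 25.9 and 24.5 RPKM in NICeCA, with overlap, and its log2 fold change was 0.13 (95% interval -0.13 to 0.40, adjusted p = 0.430, limma). Kif13a, Kif1b and Kifc3 were picked for mention after their values were seen, because their groups did not overlap. Kif13a, a carrier of recycling endosomes, measured 4.49, 5.40 and 4.64 RPKM in Ctrl and 3.67, 3.52 and 3.56 RPKM in NICeCA. Kif1b, a carrier of mitochondria and vesicles by its different isoforms, measured 8.44, 8.02 and 7.97 RPKM in Ctrl and 6.41, 5.97 and 6.51 RPKM in NICeCA. The log2 fold changes were -0.35 ± 0.12 and -0.33 ± 0.11 (SE) for Kif13a and Kif1b, with adjusted p of 0.0794 and 0.0743 (limma). With the trend on row length removed Kif13a stood at -0.099 and Kif1b turned to 0.156. Kif16b, an early endosome motor, had means of 4.88 and 4.79 RPKM in Ctrl and NICeCA, a log2 fold change of -0.02 and an adjusted p of 0.935 (limma).

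Conventional kinesin heavy chains were represented mainly by Kif5b, the ubiquitous form, which measured 24.3, 20.02 and 29.1 RPKM in Ctrl and 26.7, 30.2 and 29.5 RPKM in NICeCA, with overlap. Kif5b had the highest mean of the family, 26.6 RPKM, and its log2 fold change was 0.24 (95% interval -0.12 to 0.60, adjusted p = 0.298, limma). The neuronal forms Kif5a and Kif5c were below the limit, at means of 0.185 and 0.629 RPKM. With Kif1c, Kif5b stood well above the other kinesins per length of gene model, the next being Kif3b at a mean of 12.0 RPKM.

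Heterotrimeric kinesin, which drives ciliary and vesicle transport, has 3 motor subunits among the members. Kif3b measured 11.5, 11.7 and 12.4 RPKM in Ctrl and 13.6, 12.1 and 10.5 RPKM in NICeCA, with a log2 fold change of 0.01 (95% interval -0.28 to 0.31, adjusted p = 0.950, limma). Kif3a had means of 3.17 and 3.05 RPKM, and its log2 fold change was -0.04 (adjusted p = 0.838, limma). Kif3c (chr12:3365132-3406494, plus strand), the alternative partner of Kif3a, measured 5.75, 6.56 and 4.62 RPKM in Ctrl and 3.15, 3.61 and 3.94 RPKM in NICeCA, apart in all libraries. Its means were 5.64 ± 0.972 and 3.57 ± 0.396 RPKM (SD, n = 3 each), and its log2 fold change was -0.53 ± 0.15 (SE), with an adjusted p of 0.0502 (limma) just over the threshold. The row of Kif3c shares 2612 bases with 1110002L01Rik, at a mean of 2.73 RPKM, so reads of the 2 genes could be mixed. No difference between the log2 fold changes of Kif3b and Kif3c was tested.

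Kifc3, a minus-end-directed motor that acts at adherens junctions and the Golgi apparatus, measured 8.63, 9.77 and 7.43 RPKM in Ctrl and 6.82, 4.98 and 5.64 RPKM in NICeCA, without overlap, and had a log2 fold change of -0.50 ± 0.15 (SE) with an adjusted p of 0.0603 (limma). Kif21b, which restrains microtubule growth, had means of 6.95 and 6.04 RPKM, a log2 fold change of -0.14 and an adjusted p of 0.672 (limma).

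**Figure D4:**
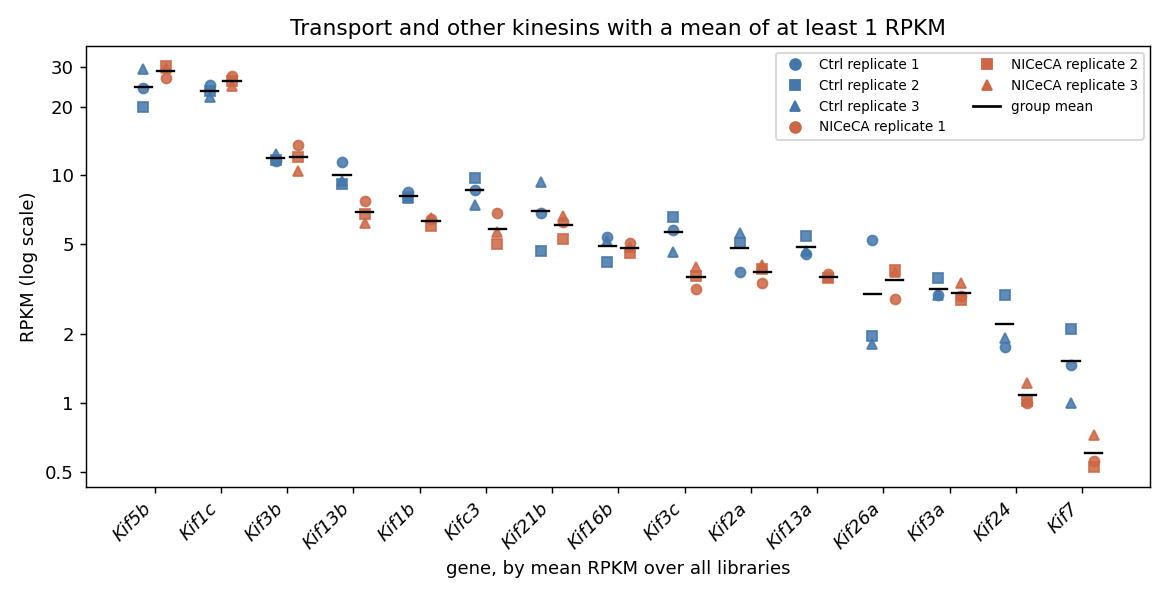
RPKM of the tested transport kinesins and other kinesins (x axis, genes; y axis, RPKM on a log scale, with points for single libraries and lines for group means) in 3 Ctrl and 3 NICeCA libraries. Kif5b and Kif1c lie highest, at means of 26.6 and 24.7 RPKM with the groups mixed, and the NICeCA points of Kif13b lie below its Ctrl points.

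Genes of cargo adaptors and light chains were examined next. Of 15 adaptor and light chain genes in the table, 10 had a log2 fold change below 0 (55.3% of all rows) and 5 above. Their median was -0.43. By limma, 3 were called lower (7.68% of all rows) and none higher (5.88%). At an unadjusted p under 0.05, 8 were lower (21.1% of all rows) and 2 higher (14.4%). Limma-voom called 1 lower and 1 higher, against 794 and 960 of all 12320 rows. Klc1, a light chain that links kinesin heavy chains to cargo, measured 30.3, 34.4 and 26.1 RPKM in Ctrl and 18.4, 18.9 and 22.6 RPKM in NICeCA, and fell with a log2 fold change of -0.57 and an adjusted p of 0.0430 (limma). Trak1, the adaptor that couples motors to mitochondria, measured 14.1, 17.3 and 14.4 RPKM in Ctrl and 8.73, 8.54 and 9.84 RPKM in NICeCA, and fell with a log2 fold change of -0.70 and an adjusted p of 0.0231 (limma). Mapk8ip3, the scaffold that joins kinesin light chains and JNK to vesicles, fell from 23.9 ± 6.52 to 13.3 ± 2.47 RPKM (SD, n = 3 each), with a log2 fold change of -0.79 and an adjusted p of 0.0475 (limma). Kifap3, the third subunit of heterotrimeric kinesin, stood at 6.62 ± 0.721 and 4.66 ± 0.377 RPKM (SD, n = 3 each), with a log2 fold change of -0.43 and an adjusted p of 0.0566 (limma). All NICeCA libraries lay below all Ctrl libraries for 7 of the 15 (24.4% of all rows). They lay above them for 3 (16.5%), Arl8b, Plekhm2 and Arl8a. Arl8b stood at 19.1 ± 3.03 and 28.1 ± 3.13 RPKM (SD, n = 3 each), with a log2 fold change of 0.54 and an adjusted p of 0.0514 (limma). For Plekhm2 these were 0.31 and 0.0907 (limma).

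Cytoplasmic dynein, the motor that runs the other way along microtubules, showed 4 of 15 tested genes below 0 and 11 above. The median log2 fold change was 0.16, and 55.3% of all tested rows lay below 0. These 15 rows had a median length of 2035 bases, against 5438 bases for tested kinesins. Shorter rows tended to higher values over all genes, and the part of length here was not tested. The dynein heavy chain Dync1h1, with a row of 14398 bases, fell from 44.4 ± 3.92 to 30.5 ± 2.10 RPKM (SD, n = 3 each), with a log2 fold change of -0.53 and an adjusted p of 0.0376 (limma). The dynein intermediate chain Dync1i2 rose from 17.3 ± 3.07 to 26.7 ± 0.805 RPKM (SD, n = 3 each), with a log2 fold change of 0.61 and an adjusted p of 0.0373 (limma). These 2 were the calls made among the 15 genes, a share near the 13.6% of all rows called in either direction. By limma-voom, 1 adaptor was called lower and 1 higher, and 0 dynein genes lower and 3 higher. Over all 12320 tested rows, limma-voom called 794 lower and 960 higher. All 5 partner calls were lost with the replicate number as a block, and without Ctrl replicate 2, NICeCA replicate 1 or NICeCA replicate 2.

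Other kinesins were few among tested rows, 4 of 11. Kif24, which remodels centriolar microtubules and keeps cilia from forming in cycling cells, measured 1.77, 2.98 and 1.92 RPKM in Ctrl and 1.00, 1.02 and 1.23 RPKM in NICeCA. The groups were apart, with means of 2.22 ± 0.658 and 1.08 ± 0.125 RPKM (SD, n = 3 each), a log2 fold change of -0.61 ± 0.17 (SE) and an adjusted p of 0.0521 (limma). By limma-voom on recovered reads the log2 fold change of Kif24 was -0.93 with an adjusted p of 0.0443. Kif7, the ciliary tip regulator of Hedgehog signalling, measured 1.47, 2.10 and 1.00 RPKM in Ctrl and 0.557, 0.526 and 0.724 RPKM in NICeCA, apart in all libraries. Its log2 fold change was -0.64 ± 0.19 (SE), with an adjusted p of 0.0589 (limma).

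Kif2a, a microtubule depolymerase of resting and dividing cells, had means of 4.79 and 3.75 RPKM with a log2 fold change of -0.28 and an adjusted p of 0.231 (limma). Kif26a, an atypical kinesin without motor activity, measured 5.22, 1.97 and 1.81 RPKM in Ctrl and 2.85, 3.84 and 3.76 RPKM in NICeCA, where Ctrl replicate 1 was the highest of all libraries and the other Ctrl libraries were the lowest. The log2 fold change of Kif26a was 0.26 with an adjusted p of 0.559 (limma).

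The 13 members below the limit were not tested. Transport members among these were the neuronal motors Kif1a and Kif5a, with Kif5c, Kif17, Kif21a and Kifc2, and the other members were Kif2b, Kif6, Kif9, Kif12, Kif19a, Kif26b and Kif27. Their means were at most 0.629 RPKM, 5 of them were under 0.1 RPKM, and 3 had a value of 0 in some library. Kif5c measured 0.764, 0.808 and 0.768 RPKM in Ctrl and 0.561, 0.464 and 0.408 RPKM in NICeCA. Kifc2 measured 0.758, 0.551 and 0.530 RPKM in Ctrl and 0.235, 0.324 and 0.384 RPKM in NICeCA. All NICeCA libraries lay below all Ctrl libraries for 5 of the 13, Kif5c, Kifc2, Kif19a, Kif21a and Kif27, and above them for 2, Kif2b and Kif6, which had 0 to 4 reads a library. No share over all rows below the limit was computed to set beside these counts, which are descriptions of low levels.

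Row length went with the direction of the differences across all genes, and kinesins have long rows. The 27 tested kinesin rows had a median length of 5438 bases, against 2733 bases for all tested rows. Over all tested rows, the median log2 fold change was 0.16 for rows under 1000 bases (1281 rows), -0.06 for rows of 2000 to 4000 bases (4790 rows), -0.15 for rows of 4000 to 6000 bases (2152 rows) and -0.28 for rows of at least 6000 bases (1283 rows). In the last 3 ranges 56.9%, 66.0% and 77.5% of all rows lay below 0, and kinesins did so in 8 of 8, 10 of 11 and 5 of 8 rows, so in the longest range the kinesin share was under that of all rows. With a trend on length removed from each library, the median was -0.29 for mitotic kinesins, with 11 of 12 below 0, and 0.16 for transport kinesins, where the direction turned. By the same step, Kifc1 stood at -0.88, Kif22 at -0.65 and Kif13b at -0.29, and Kif1b turned to 0.16. What moves with row length in these libraries was not tested.

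**Figure D5:**
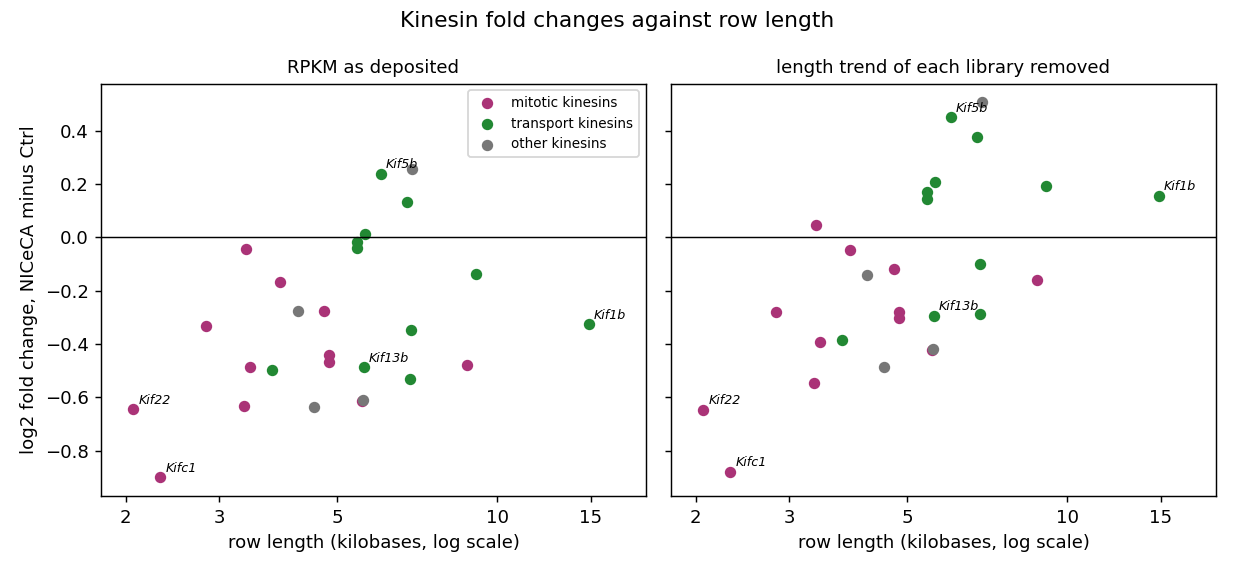
Log2 fold change of RPKM + 1, NICeCA minus Ctrl (y axis), against row length in kilobases on a log axis (x axis) for the 27 tested kinesins by class, with RPKM as deposited (left) and with the length trend of each library removed (right). Kif13b moves from -0.49 to -0.29, Kif1b from -0.33 to 0.16, while Kifc1 and Kif22 stay low, at -0.88 and -0.65 on the right.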

How the data were processed

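RNA of CD31-bead fractions from LLC tumors was measured in 3 Ctrl and 3 NICeCA libraries, grouped by their titles. The authors deposited RPKM per gene row, made from Ribo-Zero depleted Illumina libraries. Notes of the submitters name TopHat2 and mm9, while row positions matched GRCm38.p6 for 40 of 40 kinesin rows, so GRCm38.p6 is given as their build. The deposited RPKM gave whole reads within 0.05 of a read for all values below 1000 reads. RefSeq rows with a mean of at least 1 RPKM were tested on log2(RPKM + 1) with limma 3.58.1 in R 4.3.3 (eBayes with trend, two-sided, Benjamini-Hochberg over 12320 rows), and a row was called at an adjusted p under 0.05. With 3 libraries a group, an exact permutation test could not go below p = 0.1, so none is given. The code was tested on simulated data. FANTOM3 rows (33353) were not used.

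Members, classes and lists were chosen with earlier results of these data known. Values by library are given for called kinesins, for all tested mitotic kinesins, and for other kinesins with a mean of at least 10 RPKM or a log2 fold change of at least 0.5 in size. Kif13a, Kif1b, Kifc3, Kif26a, Kif5c and Kifc2 lie outside this rule, and their values were added after they were seen. Partners are given as counts, with values for called ones and for Cenpe, Klc1, Kifap3, Racgap1 and Prc1. Arl8b and Plekhm2 were added after their values were seen. Alternatives were scalings, pseudocounts, filters, a length correction, a replicate block, limma-voom on recovered reads and leaving out each library. Promoter sequences are from RefSeq.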

Additional observations from a re-analysis of the deposited data

How the results depend on the processing

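The count of kinesins called lower, 1 as reported, was 0 by TMM scaling, quantile normalization, no filter on low values and removal of the length trend, 2 with a pseudocount of 0.1 (Kif24 and Kif3c) or eBayes without trend (Kif24 and Kif7), and 10 at an adjusted p under 0.1. Without single libraries it ranged from 0 to 2, the 2 being Kif3c and Kif7 without Ctrl replicate 3. None was called higher in any setting. The partner calls, 5 as reported, were 2 by quantile normalization, 1 without a filter, 3 with the length trend removed and 19 at an adjusted p under 0.1, and 0 to 9 without single libraries. With the replicate number as a block, 0 kinesins and 0 partners were called, and 4.35% of all rows. For each library, deviations of log2(RPKM + 1) from the group mean of each row were taken and correlated between Ctrl and NICeCA libraries. For same-numbered libraries these deviations correlated at 0.122, -0.343 and -0.178, and the numbers were not taken as pairs. Deviations within a group are bound to each other through their mean, so these correlations cannot decide whether the numbers mark pairs. The deviations of differently numbered Ctrl and NICeCA libraries correlated at -0.319 to 0.438. The methods speak of pairs of mice, but which libraries they gave is unknown, so the main fit ignores any pairing.

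Of all tested rows, 13.6% were called as reported, 6.26% by quantile normalization, 1.65% without a filter, 6.46% with the length trend removed and 27.1% at an adjusted p under 0.1. Without single libraries the share ran from 0.219% (without NICeCA replicate 2) to 13.5%, with 0.852% without NICeCA replicate 1, 3.08% without Ctrl replicate 2 and 8.40% without Ctrl replicate 1. Of the calls, 43.4% were higher as reported, 58.0% by TMM scaling, 57.8% by quantile normalization, 54.7% by limma-voom, 61.0% with the block and 74.1% with the length trend removed. The median of mitotic kinesins stayed below 0 in every setting, from -0.62 to -0.29. The median of transport kinesins was -0.14 as reported, -0.079 by TMM scaling, -0.024 by quantile normalization, -0.084 by limma-voom and 0.156 with the length trend removed, and -0.28 to -0.055 without single libraries.

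Of 389 single-gene values over 15 settings, 347 kept their direction and call, 14 lost a call, all of Kif13b, and 7 gained one. The other 21 turned sign, all in genes without a call. Without single libraries, values ranged from -0.108 to 0.04 for Kif16b, -0.102 to 0.012 for Kif18a, -0.361 to 0.072 for Kif21b, -0.096 to 0.022 for Kif3a and -0.072 to 0.103 for Kif3b. Kif16b turned to 0.039 by TMM scaling, 0.112 by quantile normalization, 0.17 without the length trend and 0.05 by limma-voom. Kif18a turned to 0.097 by quantile normalization and 0.047 without the length trend. Kif3a turned to 0.01 by TMM scaling, 0.102 by quantile normalization, 0.146 without the length trend and 0.015 by limma-voom. Without the length trend, Kif21b turned to 0.193 and Kif1b to 0.156. The cause was not tested. A quasi-likelihood count model on recovered reads was not run, because the deposited unit is RPKM. Kinesins at 1 to 3 RPKM rest on as few as 84 reads. Fold changes over all rows went with row length. Neutrophil, fibroblast, and pericyte and smooth muscle marker sums did not overlap between the groups. Endothelial marker sums overlapped, with 10 of 10 genes higher in NICeCA by log2 fold change. The part of these in the kinesin values was not tested.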
